A study of Mus musculus with 12 samples.

Results

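The miR-99, miR-100 and miR-125 microRNAs were followed in mouse lung by 6 assays of the 762 on the array, taken by name: miR-99a, miR-99b, miR-100, miR-125a-5p, miR-125a-3p and miR-125b, the assay for miR-125b-5p. Assays for the opposite arm of a hairpin, marked # in their names, were not members. The miR-125a-3p assay gave no signal in any of the 12 mice, and the other 5 members were detected in all 12 and tested. The lungs came from C57BL/6 mice in 4 groups of 3: mice fed 10% flaxseed that received 13.5 Gy (mice 15, 17 and 18), mice fed 10% flaxseed that were not irradiated (mice 11, 12 and 13), control-diet mice that received 13.5 Gy (mice 7, 8 and 9), and unirradiated control-diet mice (mice 2, 4 and 5). Flaxseed was fed for 21 days and lungs were taken 48 h after the dose. The labels give no sex, age or control-diet recipe. Levels are in log2 units relative to the mean of 260 microRNA assays of the same mouse, and a difference of 1 was read as a doubling.

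MicroRNAs are short RNAs that direct silencing proteins to matching messenger RNAs, mainly through the seed, bases 2 to 8 from the 5′ end. The miR-99 and miR-100 microRNAs share a seed, and the kinase mTOR and the chromatin remodeller SMARCA5 are among their described targets in human cells. The miR-125 microRNAs are the mammalian relatives of worm lin-4, and p53 is a described target of miR-125b in human cells and zebrafish. In mammals both kinds lie with a let-7 hairpin in small clusters.

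The mature sequences are shown because members of a family differ at few bases outside the seed, and because the members that share a cluster, rather than a seed, are set side by side below. They are RefSeq entries on GRCm38.p6, written 5′ to 3′ with the seed in capitals.
miR-99a-5p: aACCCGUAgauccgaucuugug
miR-99b-5p: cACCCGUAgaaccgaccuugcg
miR-100-5p: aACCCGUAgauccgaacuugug
miR-125a-5p: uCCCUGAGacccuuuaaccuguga
miR-125b-5p: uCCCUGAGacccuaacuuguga
miR-125a-3p: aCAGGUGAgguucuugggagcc
miR-351-5p: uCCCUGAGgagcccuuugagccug
let-7e-5p: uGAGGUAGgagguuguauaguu
let-7c-5p: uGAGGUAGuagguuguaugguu
let-7a-5p: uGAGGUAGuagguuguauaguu
The seed ACCCGUA is held by 3 of 1679 mature mouse names in RefSeq, which are miR-99a, miR-99b and miR-100. Counting from the 5′ end, and with the miR-99a base first, miR-100 differs from miR-99a by U16A alone, and miR-99b differs from miR-99a by A1C, U11A, U16C and U21C. The seed CCCUGAG is held by 5 names: miR-125a-5p, miR-125b-5p, miR-351-5p, miR-6367 and miR-6394. miR-125a-5p (24 bases) and miR-125b-5p (22 bases) begin with the same 13 bases. miR-125a-3p, from the opposite arm, has another seed. let-7c differs from let-7a by A19G and let-7e from let-7a by U9G, with the let-7a base first. The labels do not say how far each assay reads such close relatives.

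The members come from 3 clusters of hairpins. On chromosome 17, mature miR-99b (chr17:17830194-17830215, plus strand) is followed by let-7e (chr17:17830366-17830387), whose hairpin begins 94 bases on, and by miR-125a-5p (chr17:17830817-17830840), whose hairpin begins a further 367 bases on. On chromosome 16, the Mirlet7c-1 hairpin lies 656 bases after that of miR-99a (chr16:77598940-77598961, plus strand), and a hairpin of miR-125b (chr16:77646279-77646300) lies 46522 bases beyond it. On chromosome 9, the hairpins of miR-100 (chr9:41531437-41531458, plus strand), let-7a-2 and another copy of miR-125b (chr9:41581940-41581961) all lie inside the noncoding gene Mir100hg. Mature miR-125b is the same from both copies, so its assay sums them. Other let-7a and let-7c hairpins lie elsewhere in the genome, so the let-7a and let-7c assays do not read these clusters alone.

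Several features of the arrays touch the results. The unirradiated flaxseed mice had 281 to 297 microRNA assays detected, at a relative threshold cycle (Crt) below 28, against 307 to 312 in the other 9 mice. Mouse 13 had the latest mean Crt, 21.2, against 19.44 to 20.42 elsewhere, and mouse 11 had the smallest gap between the 2 primer pools, 1.78 cycles against 2.37 to 2.81. All 6 member assays belong to pool A, which holds 181 of the 296 tested assays. The Crt columns of the irradiated flaxseed and the unirradiated control mice hold values with 4 decimals, 40.0% to 49.7% of them, and those of the other 6 mice hold none. Irradiated flaxseed against unirradiated control, and unirradiated flaxseed against irradiated control, are the comparisons that lie within 1 kind of column. Lung markers were present: the summed epithelial markers (8 assays, among them the miR-200 microRNAs) lay between 7.24 and 7.70 in all mice, and liver miR-122 was detected in none.

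miR-125a-5p was low in the 3 unirradiated flaxseed lungs and close to 0 in the other 9. miR-99a, miR-99b, miR-100 and miR-125b moved far less, and after scaling their highest group means were in those same unirradiated flaxseed mice. Before scaling, these mice were instead the latest group for all 4. Their mean Crt was 15.69 for miR-99a, 16.06 for miR-99b, 15.87 for miR-100 and 14.18 for miR-125b. The latest mean of any other group was 15.34, 15.82, 15.54 and 13.94, in that order. The direction of these 4 thus depends on the scaling. Flaxseed called 1 of 5 members in unirradiated mice, miR-125a-5p, which was lower, where 12.2% of all 296 assays were called and 7.09% were called lower (5.07% higher). In irradiated mice flaxseed called 0 of 5 by limma, where 5.07% of all assays were called (2.36% higher and 2.7% lower). At an unadjusted limma p under 0.05 there were 0 of 5 members and 64 of all 296 assays. Radiation on the flaxseed diet called 2 of 5, miR-125a-5p higher and miR-99b lower, where 14.5% of all assays were called (8.45% higher and 6.08% lower). Here 5 of 5 members and 96 of all 296 assays had an unadjusted limma p under 0.05. Flaxseed in unirradiated mice had 1 of 5 members and 86 of 296 assays under that limit. Radiation on the control diet called 0 of 5, and also 0% of all assays by limma, although 30 assays had an unadjusted p under 0.05, none of them a member. A call is an adjusted p under 0.05 from a limma fit of all 12 mice, adjusted over 296 assays by the method of Benjamini and Hochberg. These 4 comparisons share groups and are not independent of one another.

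**Figure D1:**
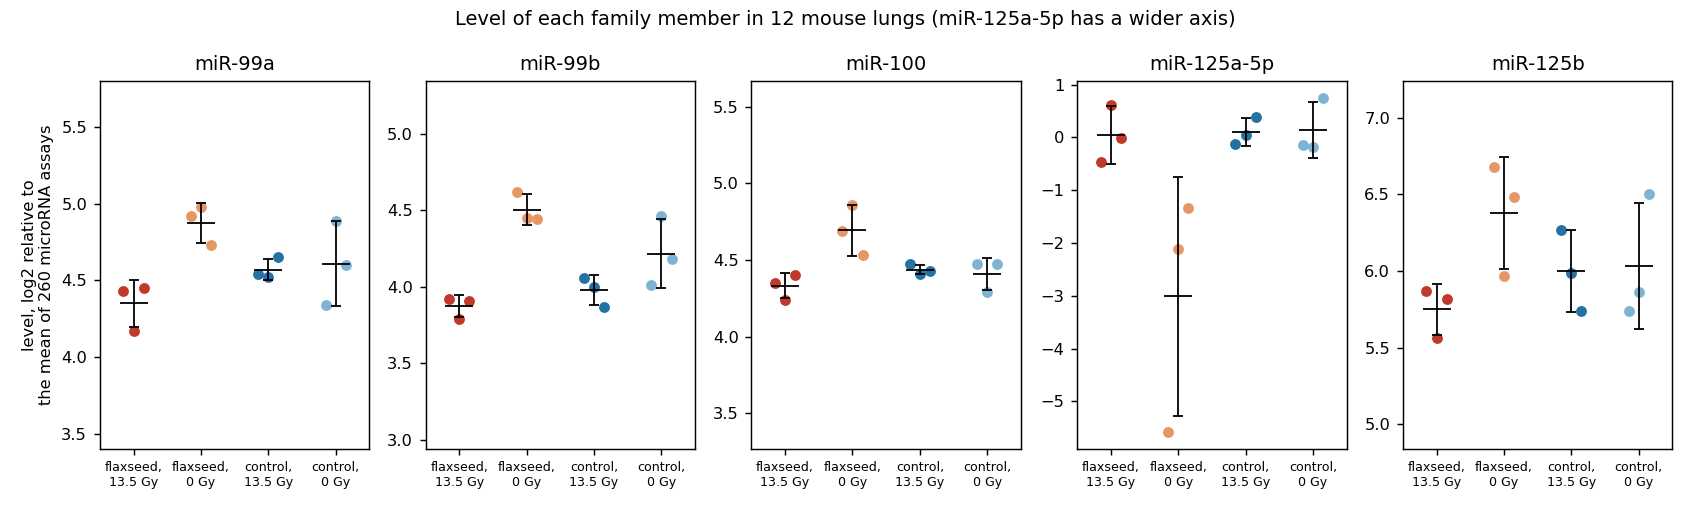
Level of each of the 5 detected family members in 12 mouse lungs, in log2 units relative to the mean of 260 microRNA assays. Points are mice, bars are group means and whiskers are 1 SD (n = 3); the axis of miR-125a-5p spans more than the other 4, which share 1 span. The unirradiated flaxseed mice stand lowest for miR-125a-5p, with a mean of -3.01, and on this scale have the highest group mean of the other 4.

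miR-125a-5p, the chromosome 17 member of the miR-125 family, had levels of -0.46, 0.62 and -0.02 in irradiated flaxseed lungs. In unirradiated flaxseed lungs it had -5.58, -2.11 and -1.34. In irradiated control lungs it had -0.13, 0.04 and 0.39, and in unirradiated control lungs -0.14, -0.18 and 0.75. Mice 11, 12 and 13 lay below all 9 others, and the remaining 3 groups overlapped. Group means were 0.05 ± 0.54 in irradiated flaxseed, -3.01 ± 2.26 in unirradiated flaxseed, 0.10 ± 0.27 in irradiated control and 0.15 ± 0.52 in unirradiated control mice (SD, n = 3 each). From the lowest, the order was unirradiated flaxseed, irradiated flaxseed, irradiated control and unirradiated control, and the last 3 did not differ from their neighbours beyond their spread. Within the low group mouse 11 was far below mice 12 and 13.

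The unirradiated flaxseed mice were also the last to cross the threshold in the cycles before any scaling, while the order of the other 3 groups differed. miR-125a-5p crossed the threshold at 20.44, 18.82 and 19.68 cycles in irradiated flaxseed mice, and at 25.99, 22.18 and 22.54 in unirradiated flaxseed mice. It crossed at 19.87, 19.69 and 19.37 in irradiated control mice, and at 20.04, 20.27 and 19.10 in unirradiated control mice. All of these are below the detection limit of 28, and the latest 3 are those of the unirradiated flaxseed mice.

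Flaxseed in unirradiated mice went with an 8.90-fold lower miR-125a-5p, a log2 difference of -3.15 ± 0.87 (SE, limma adjusted p = 0.0395, 95% interval -5.08 to -1.23). For radiation on the flaxseed diet the difference was an 8.30-fold higher level, or 3.05 ± 0.87 (limma adjusted p = 0.0412, interval 1.13 to 4.98). Both comparisons use the same 3 unirradiated flaxseed mice. Against irradiated control mice these mice were lower by -3.11 ± 0.87 (limma adjusted p = 0.0452), a comparison within 1 kind of column in which 13.9% of all assays were called (6.76% higher and 7.09% lower) and miR-125a-5p was the 1 member of 5. Flaxseed in irradiated mice gave -0.06 ± 0.87 (interval -1.98 to 1.86) and radiation on the control diet -0.04 ± 0.87 (interval -1.96 to 1.88). These intervals reach nearly 2 log2 units either way. Their SE pools the spread of all 4 groups, and the unirradiated flaxseed mice, with an SD of 2.26, are in neither comparison. The groups compared had SDs of 0.54, 0.27 and 0.52. Fitted with the compared groups alone, flaxseed in unirradiated mice gave -3.15 ± 1.07 (limma adjusted p = 0.175). Radiation on the flaxseed diet gave 3.05 ± 1.09 in such a fit (limma adjusted p = 0.118), so neither was called there.

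The size of the miR-125a-5p difference moved most with mouse 11, and the call was lost when other mice were left out. Without mouse 11 the difference of flaxseed in unirradiated mice was -1.87 ± 0.40 (limma adjusted p = 0.014), and that of radiation on the flaxseed diet 1.77 ± 0.40 (limma adjusted p = 0.0194). The call of flaxseed in unirradiated mice was lost without mouse 2, 4 or 5, with differences of -3.31 to -2.85 and adjusted p of 0.0614 to 0.115. It was also lost without mouse 15, 17, 18, 7, 8 or 9, which are not in that comparison. There the difference stayed at -3.15, with adjusted p of 0.0512 to 0.0613. The call of radiation on the flaxseed diet was lost without mouse 15, 17 or 18, with differences of 2.77 to 3.31 and adjusted p of 0.0776 to 0.143. Leaving out mouse 7, 8 or 9, which are not in that comparison, also lost it. The difference then stayed at 3.05, with adjusted p of 0.0577 to 0.0645. Against irradiated control mice the difference was -1.83 ± 0.40 without mouse 11 (limma adjusted p = 0.0206). The call was lost without any of the 10 mice other than 11 and 13, at adjusted p of 0.0504 to 0.142. Without mouse 15, 17, 18, 2, 4 or 5, which are not in that comparison, the difference stayed at -3.11. In each of these fits the unirradiated flaxseed mice were the lower group. Over 25 alternatives, left-out mice among them, the flaxseed call in unirradiated mice held in 14 and the radiation call on flaxseed in 15. The call against irradiated control mice held in 12. Scaled to the control RNAs the radiation difference was 3.25 ± 0.92 (limma adjusted p = 0.0551). With the authors' normalized values it was 2.66 ± 0.77 (limma adjusted p = 0.0524).

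miR-99b, the first hairpin of the same chromosome 17 cluster, had levels of 3.92, 3.79 and 3.91 in irradiated flaxseed lungs and 4.62, 4.45 and 4.44 in unirradiated flaxseed lungs. It had 4.06, 4.00 and 3.87 in irradiated control lungs and 4.01, 4.46 and 4.18 in unirradiated control lungs. The 2 flaxseed groups did not overlap. The unirradiated control mice lay above the irradiated flaxseed mice and overlapped the unirradiated flaxseed mice. Group means were 3.87 ± 0.08 in irradiated flaxseed, 4.50 ± 0.10 in unirradiated flaxseed, 3.98 ± 0.09 in irradiated control and 4.22 ± 0.23 in unirradiated control mice (SD, n = 3 each). The order from the lowest was irradiated flaxseed, irradiated control, unirradiated control and unirradiated flaxseed, and each group overlapped its neighbour.

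Radiation on the flaxseed diet went with 0.648 times the miR-99b level, a log2 difference of -0.63 ± 0.17 (limma adjusted p = 0.0362, interval -1.0 to -0.25). The median of all 296 assays in that comparison was -0.25. The direction turned with no normalization, where miR-99b gave 0.24 ± 0.36 (limma adjusted p = 0.66) and the median of all assays 0.61. Scaled to the control RNAs it gave -0.43 ± 0.25 (limma adjusted p = 0.378), with the median of all assays at -0.04. The call was also lost without mouse 11, 12, 13, 15, 17 or 18, at differences of -0.66 to -0.57 and adjusted p of 0.0512 to 0.14. Without mouse 8 or 9, which are not in that comparison, it was lost at an unchanged -0.63, with adjusted p of 0.0623 and 0.0505. Under quantile normalization it gave -0.44 ± 0.23 (limma adjusted p = 0.265). On the control diet radiation gave -0.24 ± 0.17 (interval -0.61 to 0.13), with overlapping groups. Irradiated flaxseed mice lay below unirradiated control mice without overlap, at -0.34 ± 0.17, and this was not called (limma adjusted p = 0.413).

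miR-99a, the chromosome 16 member of the seed family, had levels of 4.43, 4.17 and 4.45 in irradiated flaxseed lungs and 4.92, 4.98 and 4.73 in unirradiated flaxseed lungs. It had 4.54, 4.52 and 4.65 in irradiated control lungs and 4.34, 4.89 and 4.60 in unirradiated control lungs. Unirradiated flaxseed mice lay above both irradiated groups for miR-99a and overlapped the unirradiated control mice. The radiation difference on the flaxseed diet was -0.52 ± 0.18, which missed the threshold (limma adjusted p = 0.0775), and flaxseed in unirradiated mice gave 0.27 ± 0.18 (limma adjusted p = 0.347).

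miR-100, which differs from miR-99a by 1 base, had levels of 4.35, 4.24 and 4.40 in irradiated flaxseed lungs and 4.69, 4.86 and 4.53 in unirradiated flaxseed lungs. It had 4.47, 4.41 and 4.43 in irradiated control lungs and 4.47, 4.29 and 4.47 in unirradiated control lungs. All 3 unirradiated flaxseed mice lay above the 9 others. miR-100 gave 0.28 ± 0.16 for flaxseed in unirradiated mice (limma adjusted p = 0.265) and -0.36 ± 0.16 for radiation on the flaxseed diet (limma adjusted p = 0.135). Neither was called, and the median of all assays was 0.22 in the first comparison and -0.25 in the second. Over 25 alternatives the flaxseed difference of miR-100 in unirradiated mice ran from -0.33 to 0.52.

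The 3 microRNAs of the ACCCGUA seed had small spreads between mice. The residual SD of miR-100 was 0.11, the smallest of the 296 tested assays. That of miR-99b was 0.14, rank 5, and that of miR-99a was 0.17, rank 18, against a median of 0.37 over all assays. miR-125a-5p, at 1.20, had rank 280.

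miR-125b, the other detected member with the CCCUGAG seed, had levels of 5.87, 5.56 and 5.82 in irradiated flaxseed lungs and 6.68, 5.97 and 6.48 in unirradiated flaxseed lungs. It had 6.27, 5.99 and 5.74 in irradiated control lungs and 5.74, 5.86 and 6.50 in unirradiated control lungs. The 2 flaxseed groups did not overlap, and every other pair of groups did. miR-125b gave -0.63 ± 0.26 for radiation on the flaxseed diet (limma adjusted p = 0.128), and under quantile normalization -0.82 ± 0.24, which was called (limma adjusted p = 0.0493). For flaxseed in unirradiated mice it gave 0.35 ± 0.26 (limma adjusted p = 0.392), a difference of the opposite sign to that of miR-125a-5p that was not called. Over 25 alternatives the same difference of miR-125b ran from -0.27 to 0.59. The residual SD of miR-125b was 0.32, rank 108.

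Groups that do not overlap were common in these comparisons, and their counts, which were made after the values were seen, are read against that background. Radiation on the flaxseed diet separated the groups for all 5 members and for 44.6% of all assays. Flaxseed in unirradiated mice separated miR-100 and miR-125a-5p, 2 of 5, where 28.4% of all assays were separated. Flaxseed in irradiated mice separated miR-100 and miR-99a, where 37.8% were, and radiation on the control diet separated no member, where 13.9% were. Irradiated flaxseed against unirradiated control separated miR-99b, where 20.6% were, and unirradiated flaxseed against irradiated control separated 4 of 5, all but miR-125b, where 33.1% were. Mice 11, 12 and 13 lay below all 9 others for 8.78% of all assays, 26 in number and all in pool A, miR-125a-5p among them. They lay above all 9 for 6.42%, miR-100 among them.

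**Figure D2:**
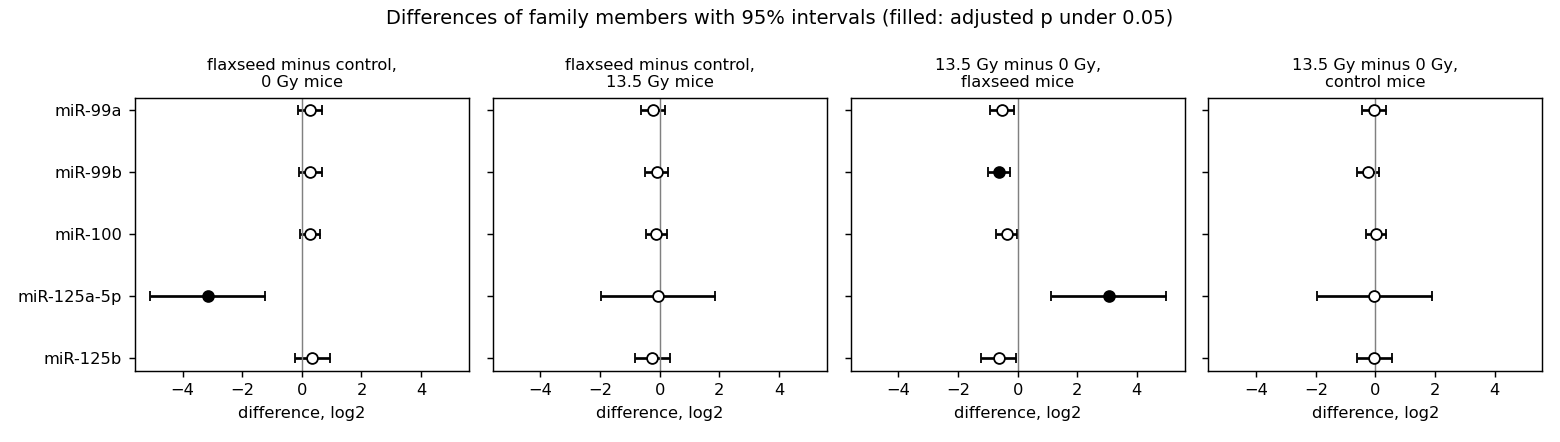
Log2 difference of each family member in 4 comparisons, with 95% intervals from the limma fit of 12 mice. Filled points have an adjusted p under 0.05: miR-125a-5p at -3.15 for flaxseed in unirradiated mice and at 3.05 for radiation on the flaxseed diet, and miR-99b at -0.63 for the same radiation comparison.

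Neither both treatments against neither nor the pooled effects called a member. Irradiated flaxseed against unirradiated control called 0 of 5, where 0.338% of all assays were called by limma, and 39 assays had an unadjusted p under 0.05, none of them a member. Flaxseed pooled over radiation called 0 of 5, where 10.5% of all assays were called (6.08% higher and 4.39% lower), and miR-125a-5p gave -1.61 ± 0.61 (limma adjusted p = 0.119). Radiation pooled over diet called 0 of 5 and 0% of all assays by limma, although 50 assays had an unadjusted p under 0.05. miR-99b was among those 50, at -0.43 ± 0.12 (limma adjusted p = 0.121), as was miR-125a-5p, at 1.51 ± 0.61 (limma adjusted p = 0.245).

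Whether the response to radiation differed between the diets was tested by the interaction. It called 0 of 5 members, where 8.45% of all assays were called (4.73% higher and 3.72% lower). miR-125a-5p gave 3.09 ± 1.23 (interval 0.38 to 5.81, limma adjusted p = 0.128), and the other 4 gave -0.59 to -0.39 with adjusted p of 0.224 or more. A difference between the diets was therefore not called for any member. The interaction also sets the columns with 4 decimals against those without, and interaction and column kind cannot be told apart.

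The medians of the members and of all assays were furthest apart for radiation on the flaxseed diet. Irradiated flaxseed against unirradiated control gave -0.26 over the members and 0 over all assays. Radiation pooled over diet gave -0.28 over the members and -0.07 over all assays. The median was 0.28 over the members and 0.22 over all assays for flaxseed in unirradiated mice, and -0.11 over the members and 0.01 over all assays in irradiated mice. For radiation it was -0.52 over the members and -0.25 over all assays on the flaxseed diet, and -0.04 over the members and 0.01 over all assays on the control diet. The range of the members was far wider than these medians on the flaxseed side, from -0.63 to 3.05 for radiation.

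Of the chromosome 17 members, miR-125a-5p was called lower for flaxseed in unirradiated mice and miR-99b, at 0.28 ± 0.17, was not called (limma adjusted p = 0.288). Within a mouse, the Crt difference between 2 assays is not changed by a scaling that subtracts the same value from both. Quantile normalization and the authors' normalized values are not of that kind. The differences below were chosen after the data were seen. miR-125a-5p minus miR-99b was -4.38, -3.17 and -3.94 in irradiated flaxseed mice and -10.19, -6.56 and -5.78 in unirradiated flaxseed mice. It was -4.19, -3.95 and -3.48 in irradiated control mice and -4.14, -4.64 and -3.43 in unirradiated control mice. Again mice 11, 12 and 13 lay below the 9 others. The mean difference was -3.44 for flaxseed in unirradiated mice and 3.68 for radiation on the flaxseed diet. Each had an exact two-sided permutation p of 0.1, the smallest that 3 against 3 can give, and 0.291 after adjustment over 64 such tests. Because the assays have different and unknown efficiencies, only changes between mice are read from these values, not which microRNA is the more abundant.

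**Figure D3:**
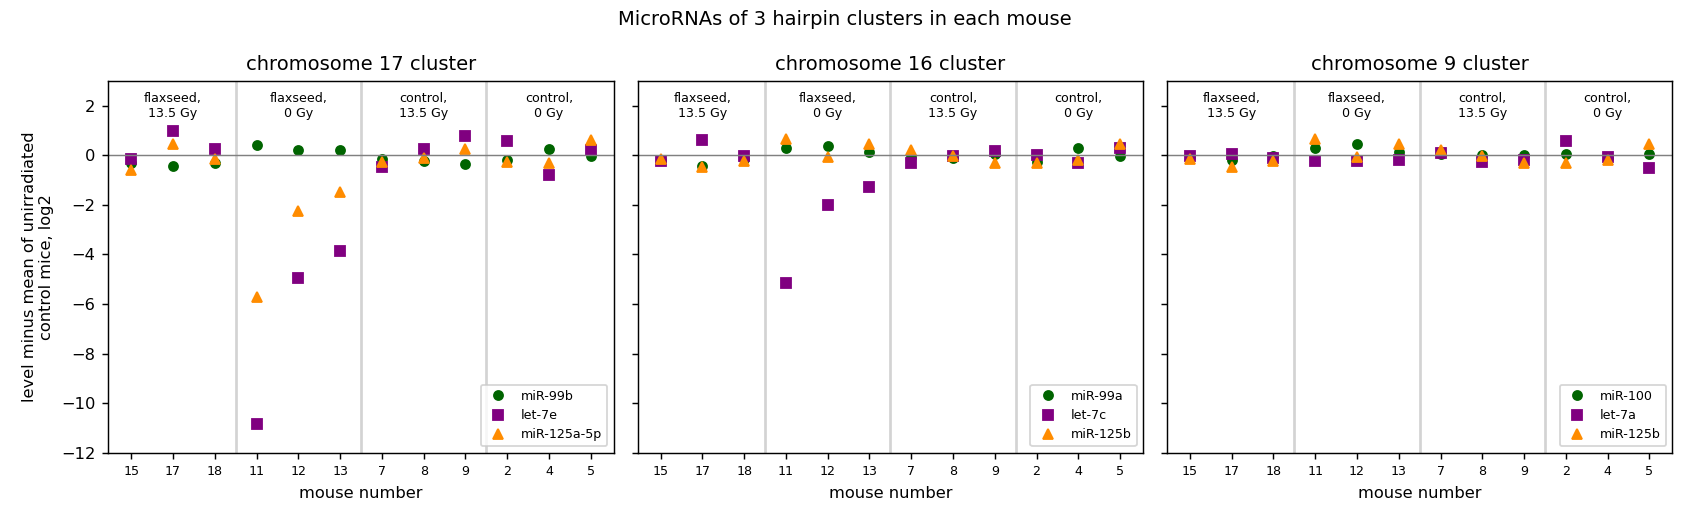
Level of the microRNAs of 3 hairpin clusters in each mouse, in log2 units as the difference from the mean of the unirradiated control mice. Points are single mice by number, grouped by diet and dose; let-7e and miR-125a-5p, of the chromosome 17 cluster, and let-7c, of chromosome 16, are low in mice 11, 12 and 13, while miR-99b, miR-99a, miR-100, miR-125b and let-7a stay within 1 log2 unit of 0.

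let-7e, the middle hairpin of that cluster, was low in the same mice and by more. Its levels were 4.11, 5.24 and 4.52 in irradiated flaxseed lungs and -6.58, -0.67 and 0.41 in unirradiated flaxseed lungs. They were 3.79, 4.52 and 5.05 in irradiated control lungs and 4.85, 3.47 and 4.46 in unirradiated control lungs. Mouse 11 was again the lowest. The difference for flaxseed in unirradiated mice was -6.54 ± 1.41 (limma adjusted p = 0.0146), and for radiation on the flaxseed diet 6.90 ± 1.41 (limma adjusted p = 0.0151). Without mouse 11 these were -4.39 ± 0.54 and 4.75 ± 0.54, both called, and the radiation call was lost without mouse 17, at 6.60 ± 1.64 (limma adjusted p = 0.0542). With a detection limit of 26, which drops the let-7e value of mouse 11, the differences were -4.41 ± 0.54 and 4.78 ± 0.54, both called.

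On chromosome 16 the let-7 assay was low in the same mice, and neither member was called for flaxseed in unirradiated mice. let-7c had 4.98, 5.84 and 5.17 in irradiated flaxseed lungs and 0.06, 3.23 and 3.94 in unirradiated flaxseed lungs. It had 4.91, 5.17 and 5.38 in irradiated control lungs and 5.21, 4.90 and 5.53 in unirradiated control lungs. let-7c differed for flaxseed in unirradiated mice by -2.80 ± 0.78 (limma adjusted p = 0.041), and for radiation on the flaxseed diet by 2.92 ± 0.78 (limma adjusted p = 0.0362). Without mouse 11 these were -1.63 ± 0.33 and 1.74 ± 0.33, both called. The flaxseed call was lost without mouse 2, 4 or 5, at -2.96 to -2.64, and the radiation call without mouse 15, 17 or 18, at 2.66 to 3.09. Leaving out mice that are not in the comparison also lost the calls, at unchanged differences. These were mouse 15, 17, 18, 7, 8 or 9 for flaxseed and mouse 7, 8 or 9 for radiation. Of 25 alternatives, the flaxseed call of let-7c held in 12 and the radiation call in 17. miR-125b minus miR-99a, the members on either side, was 1.37 to 1.45 in irradiated flaxseed mice and 1.00 to 1.76 in unirradiated flaxseed mice. It was 1.09 to 1.73 in irradiated control mice and 0.97 to 1.91 in unirradiated control mice, so the 4 groups overlapped.

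On chromosome 9 neither the members nor let-7a were called. miR-125b minus miR-100 was 1.32 to 1.53 in irradiated flaxseed mice and 1.12 to 1.99 in unirradiated flaxseed mice, against 1.30 to 1.80 in irradiated control mice and 1.26 to 2.03 in unirradiated control mice. let-7a, which differs from let-7c by 1 base, gave -0.20 ± 0.25 for flaxseed in unirradiated mice (limma adjusted p = 0.631) and 0.17 ± 0.25 for radiation on the flaxseed diet (limma adjusted p = 0.659).

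The members with the CCCUGAG seed were set against each other in the same way. miR-125a-5p minus miR-125b was -6.33, -4.94 and -5.85 in irradiated flaxseed mice and -12.26, -8.08 and -7.82 in unirradiated flaxseed mice. It was -6.40, -5.94 and -5.34 in irradiated control mice and -5.87, -6.04 and -5.75 in unirradiated control mice. Mice 11, 12 and 13 were below the 9 others here too. The mean difference was -3.5 for flaxseed in unirradiated mice and 3.68 for radiation on the flaxseed diet. By the exact two-sided permutation test of 3 mice against 3, each had p = 0.1, the smallest possible, and 0.291 after adjustment over 64 tests. miR-351, an X-linked microRNA with the same seed, had 2 assays that disagree, 001067A named for mouse and 002063A named for rat. The labels do not give the sequence that each of them reads. Assay 001067A gave no Crt in mice 11, 12 and 13 and levels of -3.33 to -2.07 in the other 9 mice. It is 1 of 3 assays that were silent in that group alone, with miR-194 and miR-409-3p, a count made after the values were seen, and there were 0 such assays for each of the other groups. Assay 002063A was detected in all 12 mice, at -3.52 to -3.07 in irradiated flaxseed mice and -3.57 to -2.16 in unirradiated flaxseed mice. It read -2.59 to -1.22 in irradiated control mice and -2.65 to -2.48 in unirradiated control mice.

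The list of relatives held 16 assays: let-7e, let-7c, let-7a, miR-10a, miR-10b, miR-351 and the opposite arms. In all, 9 were tested, and 6 were detected in no mouse, among them both miR-125b# assays and let-7e#. Flaxseed in unirradiated mice called 2 of 9 lower, let-7e and let-7c, and 1 of 9 higher, let-7a#, the opposite arm of let-7a. In that comparison 7.09% of all assays were called lower and 5.07% higher. let-7a# gave 0.98 ± 0.23 there (limma adjusted p = 0.0196) and 0.57 ± 0.16 for flaxseed pooled over radiation (limma adjusted p = 0.0468). The first of these calls held in 17 of 25 alternatives, and the pooled one held in 7 of 24, with differences of 0.30 to 0.69. The first was lost when scaled to the control RNAs (0.60 ± 0.21, limma adjusted p = 0.11). Scaled within each pool it was lost too (0.68 ± 0.21, limma adjusted p = 0.0516), and let-7a# is in pool B. Quantile normalization, no normalization, the authors' normalized values, array weights and a fit of the compared groups alone also lost it. Without mouse 4 it was lost at 0.83 ± 0.24. Radiation on the flaxseed diet called 2 of 9 higher, again let-7e and let-7c, where 8.45% of all assays were called higher. Unirradiated flaxseed against irradiated control called the same 2 lower, where 7.09% of all assays were called lower. The opposite arms of members were not called in these comparisons: miR-99a# gave 0.54 ± 0.27 and miR-99b# 0.12 ± 0.54 for flaxseed in unirradiated mice. miR-10a, a relative of miR-100 with another seed, gave -0.56 ± 0.19 for radiation on the flaxseed diet (limma adjusted p = 0.0681).

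Likeness between assays was described by the mean absolute difference of levels over the 12 mice, after each assay was centred on its own mean. All these values come from the same 12 arrays and the same scaling. The non-member most like miR-125a-5p was let-7c, at 0.17, followed by miR-195 at 0.34 and miR-193b at 0.35, against a median of 1.27 over 255 candidates. miR-99a and miR-99b were each other's nearest of 259 assays, at 0.10, and miR-99a and miR-100 were 0.12 apart. miR-125a-5p was 1.28 to 1.34 from the other 4 members. The nearest non-members were miR-221 for miR-100, at 0.09, miR-27a for miR-99a, at 0.10, miR-30d for miR-99b, at 0.13, and miR-361 for miR-125b, at 0.16.

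Markers of other cell types and the arrays' own properties moved in the same mice, and their part in the differences above was not tested. In whole lung, fewer cells of a type and less RNA per cell cannot be told apart. For flaxseed in unirradiated mice, 2 of 4 tested ciliated-cell assays were higher (miR-34b-3p and miR-449b) and 1 was lower (miR-34c). Of all assays in that comparison, 5.07% were called higher and 7.09% lower. The summed level of the 3 ciliated assays detected in all mice was 4.70 to 4.85 in irradiated flaxseed mice, 5.35 to 5.67 in unirradiated flaxseed mice, 4.58 to 4.93 in irradiated control mice and 4.62 to 4.74 in unirradiated control mice. Of 8 epithelial assays, 1 was higher (miR-375) and 1 lower (miR-429). The 1 neural assay detected, miR-124a, was lower, and no lymphoid, myeloid, erythroid, endothelial, muscle or fibroblast assay was called in that comparison. The summed lymphoid level was uneven among unirradiated flaxseed mice, at 4.64 to 9.39. It was 4.39 to 4.74 in irradiated flaxseed, 5.46 to 5.96 in irradiated control and 5.92 to 7.55 in unirradiated control mice. Summed myeloid levels were 5.87 to 7.71 in unirradiated flaxseed and 6.51 to 8.08 in unirradiated control mice. The 1 erythroid assay read -2.61 to 1.13 and -0.76 to 0.62 in these groups. The summed smooth muscle level (3 assays, of miR-143 and miR-145) was 7.52 to 7.78 in irradiated flaxseed mice and 7.87 to 8.27 in unirradiated flaxseed mice. It was 7.36 to 7.61 in irradiated control mice and 7.54 to 7.74 in unirradiated control mice, so the unirradiated flaxseed mice lay above the 9 others, and miR-145 was called higher in them against irradiated control mice. For radiation on the flaxseed diet the ciliated, epithelial and neural lists held 1 higher and 2 lower of 4, 1 higher and 2 lower of 8, and 1 higher of 1. Of all assays there, 8.45% were called higher and 6.08% lower. In that comparison 1 of 2 endothelial assays (miR-126#) was higher, and 1 of 4 lymphoid (miR-342-3p) and 1 of 3 fibroblast assays (miR-214, assay 002306A) were lower. The summed endothelial level (miR-126 and miR-126#) was 9.77 to 10.40 in irradiated flaxseed mice and 8.82 to 9.45 in unirradiated flaxseed mice, against 8.86 to 9.92 in irradiated control mice and 9.68 to 10.23 in unirradiated control mice.

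Primer pool was one of those properties. Of the 21 assays that were called lower by flaxseed in unirradiated mice, 19 were in pool A and 2 in pool B, and all 25 called higher by radiation on the flaxseed diet were in pool A. Scaled within each pool, miR-125a-5p gave -2.97 ± 0.80 for flaxseed in unirradiated mice (limma adjusted p = 0.0283) and 2.94 ± 0.80 for radiation on the flaxseed diet (limma adjusted p = 0.0337). This scaling subtracts the mean of each pool in each mouse, so it cannot show whether only some assays of pool A were shifted. Whether anything other than diet and dose differed between the groups' reactions in pool A was not tested.

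**Figure D4:**
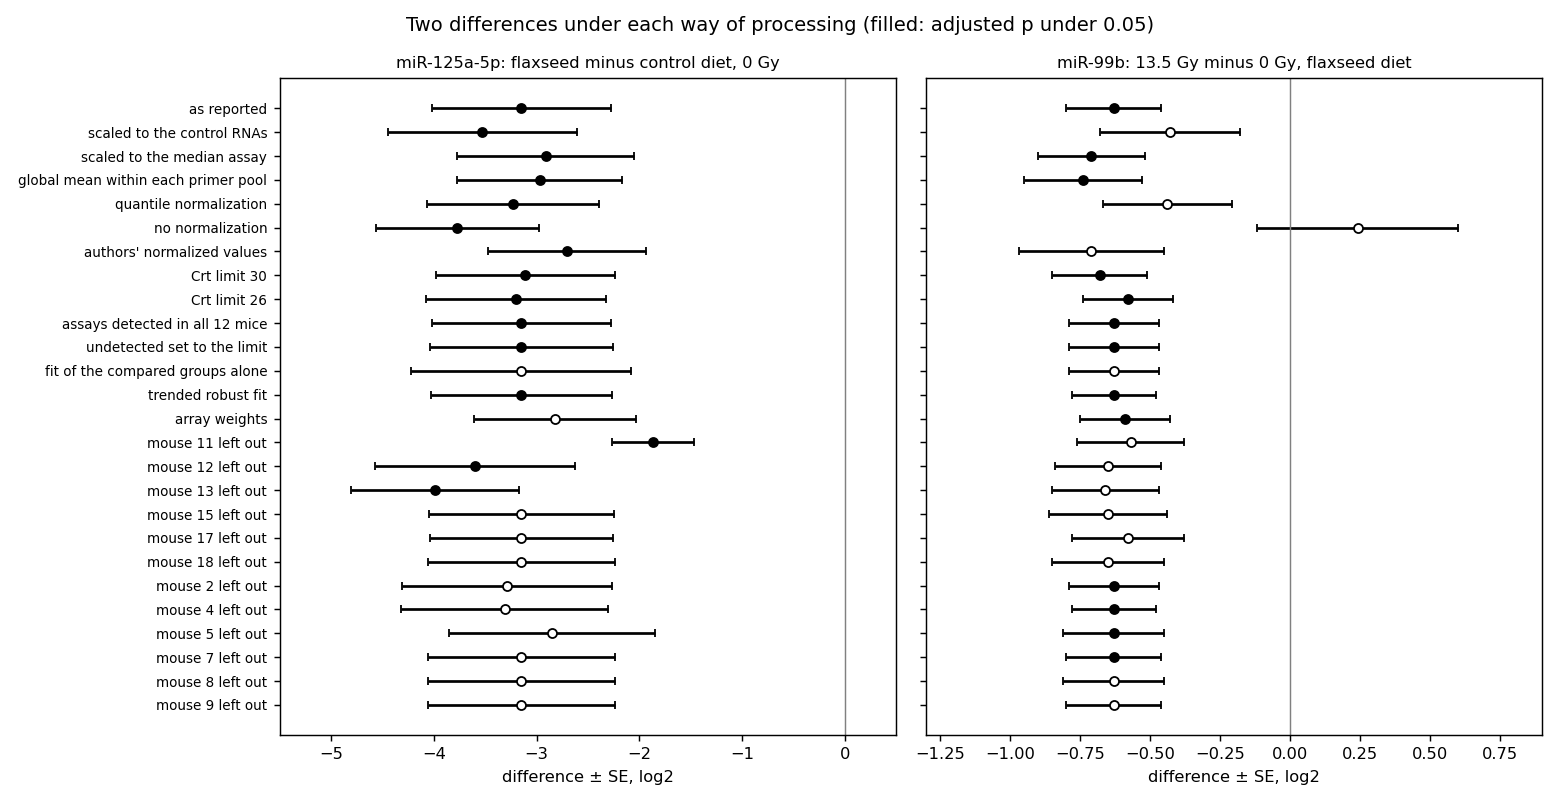
Difference ± SE, in log2 units, of miR-125a-5p for flaxseed in unirradiated mice and of miR-99b for radiation on the flaxseed diet, as reported and under 25 other ways of processing. Filled points have an adjusted p under 0.05; miR-125a-5p stays between -3.99 and -1.87 throughout, and miR-99b spans -0.74 to 0.24, crossing 0 with no normalization.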

How the data were processed

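Lung RNA of 12 mice was measured by TaqMan OpenArray PCR after reverse transcription of 100 ng RNA with Megaplex pools A and B and 12 cycles of pre-amplification, per the labels. The authors deposited Crt values, a log2 scale that runs downward, and a second table of normalized log2 values with nearly the same distribution in every mouse. The labels do not state how Crt was called. Assay names were carried from the normalized to the Crt table by rank within each mouse: 322 of 326 assays with a Crt matched, and 317 of them stood within 2 rows of the named position. Undetected reactions (Crt of 28 or more, or none) were missing. Levels are minus Crt after subtraction of the mouse's mean Crt over 260 microRNAs, those found in every mouse. The 296 assays found in 2 or more of the 3 mice in every group were fitted with limma 3.58.1 in R 4.3.3 (4 group means, 8 residual and 2.41 prior degrees of freedom), with Benjamini-Hochberg adjustment. The script was tested on simulated data. Tables were joined in Python 3.11.15 with pandas 2.3.3.

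There is no read depth here, and the number of mice limits precision. The text names every member, the called assays of 1 list of relatives, and the 3 nearest assays by likeness for miR-125a-5p and the nearest for the others. Members and lists were chosen with earlier results of these data known. Alternatives were other scalings, limits of 26 and 30, undetected reactions set to 28, other fits, and each mouse left out.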

Additional observations from a re-analysis of the deposited data

How the results depend on the processing

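Over 25 alternatives, 1110 differences of members were recomputed. Of these, 1059 kept their side of the threshold, 46 lost the call, 4 gained one, and 1 called difference changed sign: miR-99b for radiation on the flaxseed diet, at 0.24 with no normalization. A further 83 differences changed sign that were called neither as reported nor under that alternative. Radiation on the flaxseed diet called 2 members as reported, 0 when scaled to the control RNAs, with the authors' normalized values and in a fit of the compared groups alone, 1 with no normalization and with undetected reactions set to the limit, and 0 to 2 with a mouse left out; quantile normalization also called 2, with miR-125b at -0.82 (adjusted p = 0.0493) in place of miR-99b at -0.44 (adjusted p = 0.265). Unirradiated flaxseed against irradiated control called 1 member as reported, 0 when scaled to the control RNAs, with undetected reactions set to the limit and in a fit of the compared groups alone, 2 in a trended robust fit, and 0 to 1 with a mouse left out. Flaxseed in unirradiated mice called 1 as reported, 0 in a fit of the compared groups alone and with array weights, and 0 to 1 with a mouse left out. Radiation pooled over diet called 1 with no normalization and flaxseed pooled over radiation 0 to 1 with a mouse left out (1 without mouse 13), each against 0 as reported. The cause was not tested, except that leaving out a mouse, or fitting the compared groups alone, leaves fewer samples. The counts of the other 4 comparisons stayed at 0. Over all assays the counts moved further: 9 to 60 against 36 for flaxseed in unirradiated mice, 1 to 66 against 15 for flaxseed in irradiated mice, 0 to 55 against 43 for radiation on the flaxseed diet, 2 to 44 against 41 for unirradiated flaxseed against irradiated control, 0 to 8 against 1 for irradiated flaxseed against unirradiated control, 6 to 49 against 31 for flaxseed pooled, 0 to 31 against 25 for the interaction, 0 to 19 against 0 for radiation pooled and 0 to 2 against 0 for radiation on the control diet. A fit of the compared groups alone could not be made for the pooled effects and the interaction, which use all 4 groups. No paired analysis was possible because the mouse numbers are not shared between groups.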
